A study of Saccharomyces cerevisiae SK1 with 28 samples.

Results

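The 8 ChIP-seq libraries described here compare budding yeast cells in sporulation medium with vegetative cells, and they are 8 of the 14 ChIP libraries and of the 28 libraries of the series. They were chosen by their labels alone. All come from wild-type SK1, a laboratory strain of Saccharomyces cerevisiae that sporulates efficiently. The vegetative group (2 libraries) grew in the rich medium YPD and was taken in exponential phase at an OD600 of 0.6. The sporulation group (6 libraries) grew to saturation in YPD and then in BYTA, a premeiotic medium, was washed, and was taken 5.5 h, 6 h 45 min or 8 h after transfer to sporulation medium, with 2 libraries per time. Both groups were grown at 30 °C, and crosslinking was in 1% formaldehyde over 15 min. Neither group received DTT, a reducing agent used elsewhere in the series. The sources used here do not name the immunoprecipitated protein. They also do not say whether replicates, or times with the same replicate number, were separate cultures, so p-values measure the spread between these libraries, which may be technical.

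Diploid yeast deprived of nitrogen and given acetate as the carbon source leave the mitotic cycle, undergo meiosis and form spores. Both growth and sporulation load the endoplasmic reticulum (ER), where secreted and membrane proteins are folded by chaperones such as the Hsp70 Kar2. When folding falls behind, the kinase and nuclease Ire1 splices HAC1 mRNA, and the Hac1 transcription factor made from it raises KAR2, PDI1 and many other genes, a programme known as the unfolded protein response.

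Each library has 1 deposited table in which a row pairs a peak summit with a promoter window of 600 bp immediately upstream of a gene. The 8 tables listed between 4 and 18 summits each, and together they named 55 genes of the 6021 protein-coding genes of the R64 reference and of the 551 genes named in the 14 tables of the series. Read depth is unknown from these tables, and the sources used here do not say how the authors picked the listed summits from their peaks. Absence from a table therefore does not show that a promoter was unbound. A gene was called in vegetative cells when both vegetative tables listed it, and in sporulation medium when both tables of at least 1 time did. The 2 vegetative tables shared 15 genes, which is 65.2% of the 23 genes of replicate 1 and 88.2% of the 17 of replicate 2. The library of replicate 1 at 5.5 h stands apart with 4 summits and 7 genes. The other 5 sporulation tables held between 16 and 29 genes.

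In all, 28 genes were called. Vegetative cells had 15 (0.249% of protein-coding genes) and sporulation medium had 17 (0.282%). Counting genes in at least 1 table instead, vegetative cells had 25 (0.415%) and sporulation medium 38 (0.631%). KAR2, TAD2, MRPS17 and GCV2 were called in both groups. Vegetative growth alone had PSA1, DFR1, TAL1, FSF1, YTM1, TRS31, AAR2, UTR5 and YDR042C, 9 genes that no sporulation table listed. Sporulation medium alone had HSH49, MBF1, BUD7, ARG82, HMO1, YAP1802, FMP43, CPR1, RPA14, DCP2 and MLS1, 11 genes that no vegetative table listed. PDI1 and GLK1 were called in vegetative cells and listed in 1 sporulation table, while TPM1 and NIS1 were called in sporulation medium and listed in 1 vegetative table. These counts follow from the call rule and are descriptions. With the 5.5 h time left out they were 17 genes called in sporulation medium, 11 of them in no vegetative table, as in the full set. With 5.5 h called from replicate 2 alone they were 31 and 25.

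**Figure D1:**
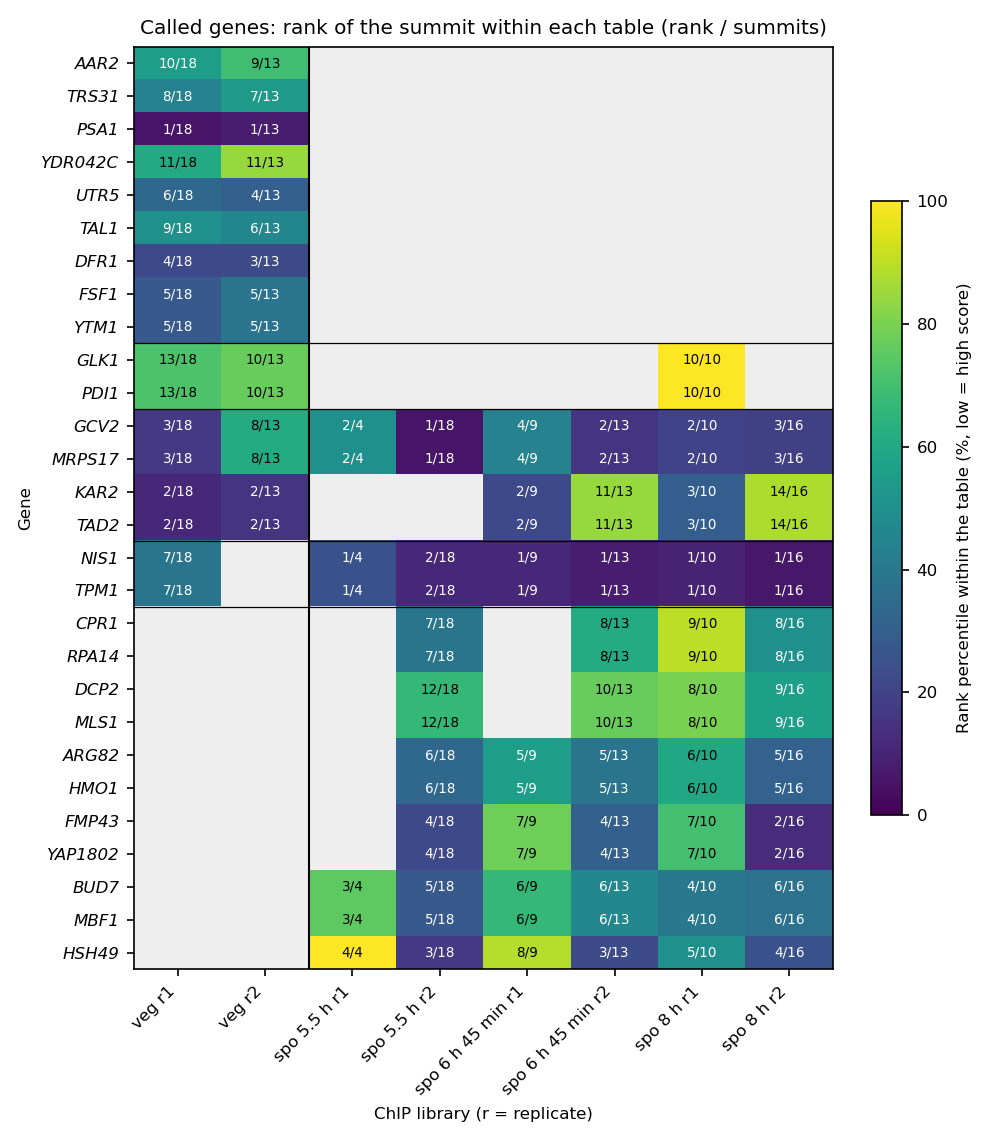
Rank of the summit of each of the 28 called genes (rows) in each of the 8 ChIP tables (columns; veg, vegetative; spo, sporulation medium; r, replicate), printed as rank over the number of summits in the table and coloured by rank percentile, with grey where a gene was not listed. PSA1 is first in both vegetative tables and in no sporulation table, and TPM1 with NIS1 is first in 5 of the 6 sporulation tables.

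Each gene was tested over the libraries for being listed more often in one group (two-sided Fisher exact test, 2 libraries against 6, 55 genes). The smallest p this design allows is 0.0357. It was reached by the 9 genes with 2 of 2 vegetative and 0 of 6 sporulation tables (16.4% of 55) and by HSH49, MBF1 and BUD7 with 0 of 2 and 6 of 6 (5.45% of 55). After Benjamini-Hochberg adjustment over the 55 genes, 0 passed (Fisher exact test, smallest adjusted p = 0.164), and 12 had an unadjusted p under 0.05. An adjusted p under 0.05 would have needed most of the 55 genes at 0.0357, so this test could hardly pass. Genes that share a summit are counted separately, so the tests are not independent. These tests and the permutation tests below also count the 6 sporulation libraries as independent, although the deviations of same-numbered tables correlated at 0.364 to 0.599 between the sporulation times.

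KAR2 codes for BiP, the Hsp70 chaperone of the ER, and was the gene of the ER folding list called in both groups. Its window spans chromosome X positions 391422 to 392021 of the deposited SK1 coordinates (SK1_10G01690, plus strand). It shares its summits with the divergent gene TAD2, which encodes a subunit of the tRNA adenosine deaminase and whose start lies 326 bp from that of KAR2. Its summit ranked 2 of 18 and 2 of 13 in the vegetative tables. In sporulation medium it was in neither table at 5.5 h. It ranked 2 of 9 in replicate 1 and 11 of 13 in replicate 2 at 6 h 45 min, and 3 of 10 in replicate 1 and 14 of 16 in replicate 2 at 8 h. KAR2 was thus near the top of both vegetative tables and of the replicate 1 tables at the later times, and near the bottom of the replicate 2 tables. The mean rank percentile, where low means a high score, was 13.2 over 2 vegetative and 56.1 over 4 sporulation tables (exact two-sided permutation test, p = 0.133; adjusted p = 0.286 over the 8 genes listed in both groups). Ranks from lists of different length do not measure a change in binding.

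The KAR2 summits lay 168 and 167 bp upstream of the gene start in vegetative cells. They lay 156 and 161 bp upstream at 6 h 45 min and 163 and 161 bp upstream at 8 h (replicates 1 and 2). The sporulation summits all lay nearer to KAR2, by 7.25 bp on average, in 4 of 4 libraries. The difference did not pass (exact two-sided permutation test, p = 0.0667, adjusted p = 0.133). As 0.0667 is the smallest p that 2 against 4 libraries can give, this test could not pass. The shared summit moved away from TAD2 by the same amount, from a mean of 158.5 bp to 166 bp upstream of it. Positions like those in sporulation medium were also found in BYTA. There the KAR2 summits lay 163 and 159 bp upstream at 6 h and 158 bp upstream in the 1 table at 21 h. With DTT they lay 510 and 390 bp upstream.

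PDI1, which encodes protein disulfide isomerase of the ER, shares its summits with GLK1, the glucokinase gene, on chromosome III (PDI1 window 50856 to 51455). The summit ranked 13 of 18 and 10 of 13 in the vegetative tables, and 10 of 10 in replicate 1 at 8 h in sporulation medium. The other 5 sporulation tables did not list it. The summits lay 246 and 270 bp upstream of PDI1 in vegetative cells and 241 bp upstream at 8 h. It stood below the middle of each of the 3 tables, and in the sporulation table it was the last entry.

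HAC1, which encodes the transcription factor of the unfolded protein response, was in neither vegetative table. It was in 1 sporulation table, replicate 1 at 6 h 45 min, where its summit ranked 3 of 9 and lay 226 bp upstream. HAC1 was also in both tables of vegetative cells treated with DTT and in both at 6 h in BYTA. The summit in sporulation medium also lies in the window of RIM15, which encodes a kinase needed for entry into meiosis and quiescence, 543 bp from its start. KAR2 and PDI1 were the ER folding genes listed in the 8 tables, of 18 genes of that list. In vegetative cells 2 of 18 were called, and in sporulation medium 1 of 18, KAR2. The list of ER translocation genes (12 genes) had 0 listed in either group. Over all protein-coding genes 0.415% were in at least 1 vegetative table and 0.631% in at least 1 sporulation table, so 0 is near those shares.

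The vegetative genes with no sporulation listing were led by PSA1, which encodes GDP-mannose pyrophosphorylase and so makes the mannose donor for glycoproteins and the cell wall. Its window spans chromosome IV positions 368819 to 369418 (SK1_04G01790, minus strand). PSA1 ranked 1 of 18 and 1 of 13 in the vegetative tables, with summits 495 and 493 bp upstream of the gene. It was the strongest summit of vegetative cells by the authors' score and was in 0 of 6 sporulation tables. That listing pattern defines the set, so every gene of it has the same value (Fisher exact test, p = 0.0357; adjusted p = 0.164). The value therefore adds nothing about PSA1 alone. It was also the 1 gene of 10 on the list of GDP-mannose and protein mannosylation genes to be listed in any of the 8 tables.

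DFR1, which encodes dihydrofolate reductase of folate metabolism, ranked 4 of 18 and 3 of 13, with summits 151 and 136 bp upstream (chromosome XV, window 750815 to 751414). TAL1, which encodes transaldolase of the pentose phosphate pathway, ranked 9 of 18 and 6 of 13, with summits 495 and 486 bp upstream (chromosome XII, window 802847 to 803446). Both are genes of primary metabolism, and neither was in a sporulation table.

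FSF1, for a mitochondrial membrane protein of the sideroflexin family, and YTM1, for a factor that assembles the large ribosomal subunit, are divergent neighbours on chromosome XV. Their shared summit ranked 5 of 18 and 5 of 13, and lay 242 and 227 bp upstream of YTM1 (window 802718 to 803317) and 529 and 544 bp upstream of FSF1. Among the 8 promoter regions that vegetative cells had alone, this was the 1 whose summit fell in the windows of 2 genes.

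TRS31, which encodes a subunit of the TRAPP complexes that tether transport vesicles, ranked 8 of 18 and 7 of 13, with summits 206 and 193 bp upstream. AAR2, which encodes a U5 snRNP assembly factor of the spliceosome, ranked 10 of 18 and 9 of 13, with summits 546 and 555 bp upstream, close to the far end of its window. UTR5 and YDR042C, which have no known function, ranked 6 of 18 and 4 of 13, and 11 of 18 and 11 of 13. The UTR5 summits lay 315 and 456 bp upstream and those of YDR042C 374 and 320 bp upstream, so at UTR5 and YDR042C the replicates placed the summit apart by more than at the other vegetative genes.

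MRPS17 and GCV2 were the genes listed in all 8 tables. MRPS17 encodes a protein of the small mitochondrial ribosomal subunit, and GCV2 the P subunit of the glycine decarboxylase complex, which feeds 1-carbon metabolism. They are divergent, with starts 496 bp apart on chromosome XIII (windows 610094 to 610693 and 609989 to 610588). Their summit ranked 3 of 18 and 8 of 13 in vegetative cells. It ranked 2 of 4 and 1 of 18 at 5.5 h, 4 of 9 and 2 of 13 at 6 h 45 min, and 2 of 10 and 3 of 16 at 8 h. It was thus among the first 4 entries of every sporulation table and of 1 vegetative table, but replicate 1 at 5.5 h had 4 entries in all. The mean rank percentile was 39.1 in vegetative cells and 25.7 in sporulation medium (exact two-sided permutation test, p = 0.536).

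The summits lay 178 and 174 bp upstream of MRPS17 in vegetative cells. They lay 186 and 192 bp upstream at 5.5 h, 186 and 191 bp at 6 h 45 min, and 196 and 193 bp at 8 h. The groups did not overlap, which also held for the summit position of 6 of the 8 genes listed in both groups (75%), made of 3 shared summits. The mean was 176 ± 2.83 bp in vegetative cells (SD, n = 2) and 191 ± 3.98 bp in sporulation medium (SD, n = 6), a difference of 14.7 bp away from MRPS17 and towards GCV2 in 6 of 6 libraries (exact two-sided permutation test, p = 0.0357, the smallest that 2 against 6 can give). After adjustment over the 8 genes it did not pass (exact permutation test, adjusted p = 0.133). With these numbers of libraries per gene, no adjusted p could fall under that value, so the adjusted test could not pass and decides nothing here.

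**Figure D2:**
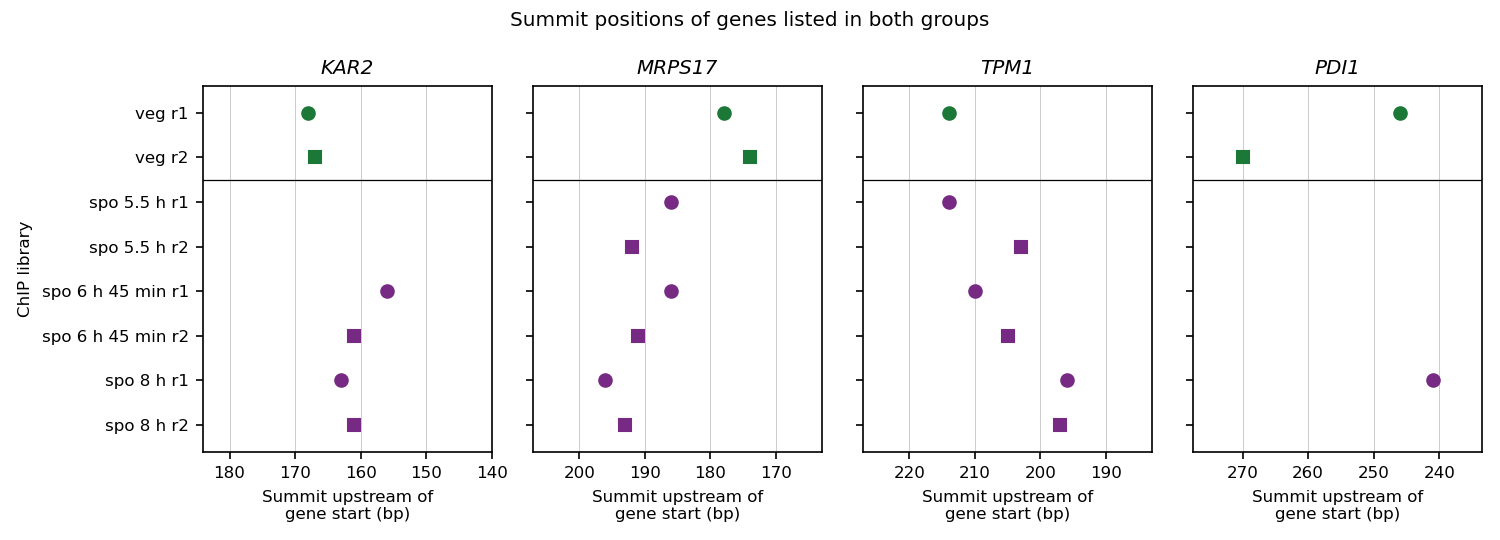
Distance of the summit upstream of the gene start in bp (x axis, gene start towards the right) for KAR2, MRPS17, TPM1 and PDI1 in each of the 8 libraries (y axis; green, vegetative; purple, sporulation medium; circles, replicate 1; squares, replicate 2). The 4 KAR2 summits in sporulation medium lie between 156 and 163 bp and the vegetative ones at 167 and 168 bp, while the MRPS17 summits lie at 186 to 196 bp against 174 and 178 bp.

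TPM1 and NIS1 held the top of the sporulation tables. TPM1 encodes the major tropomyosin, which stabilises actin cables, and NIS1 a protein of the bud neck. They are divergent on chromosome XIV with starts 607 bp apart (windows 482298 to 482897 and 482304 to 482903). Their summit ranked 1 of 4 and 2 of 18 at 5.5 h, 1 of 9 and 1 of 13 at 6 h 45 min, and 1 of 10 and 1 of 16 at 8 h. In vegetative cells it ranked 7 of 18 in replicate 1 and was not listed in replicate 2. The top place was not particular to sporulation medium, as the summit ranked 1 of 22 and 2 of 23 at 21 h in BYTA. The summit was 214 bp upstream of TPM1 in vegetative replicate 1. In sporulation medium it was 214 and 203 bp upstream at 5.5 h, 210 and 205 bp at 6 h 45 min, and 196 and 197 bp at 8 h. The vegetative position falls at the edge of the sporulation range (1 library against 6, exact two-sided permutation test, p = 0.571; adjusted p = 0.667), and with 1 vegetative library the smallest possible p is 0.143, so this test could not pass. Listing of TPM1 and NIS1 in 1 of 2 vegetative and 6 of 6 sporulation tables did not pass the test (Fisher exact test, p = 0.25; adjusted p = 0.491).

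HSH49, which encodes a subunit of the SF3b complex of the U2 snRNP in the spliceosome, was in all 6 sporulation tables and in neither vegetative one. It ranked 4 of 4 and 3 of 18 at 5.5 h, 8 of 9 and 3 of 13 at 6 h 45 min, and 5 of 10 and 4 of 16 at 8 h. All 6 summits lay between 175 and 181 bp upstream of the gene (chromosome XV, window 882704 to 883303). The rank was low in the list in replicate 1 at the earlier times and high in replicate 2 at each time, while the position moved by no more than 6 bp.

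MBF1, for a transcriptional coactivator of Gcn4, and BUD7, for a subunit of the exomer that sorts cargo at the trans-Golgi, are divergent on chromosome XV with starts 750 bp apart. Their summit ranked 3 of 4 and 5 of 18 at 5.5 h, 6 of 9 and 6 of 13 at 6 h 45 min, and 4 of 10 and 6 of 16 at 8 h. It lay 243 to 263 bp upstream of MBF1 and 487 to 507 bp upstream of BUD7. With HSH49, these are the 3 genes that separated the 2 groups in every library in favour of sporulation medium.

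The pairs ARG82/HMO1 and YAP1802/FMP43 were in 5 of 6 sporulation tables, all except replicate 1 at 5.5 h. ARG82 encodes inositol polyphosphate multikinase and HMO1 a high-mobility-group protein of ribosomal DNA and ribosomal protein promoters. Their summit ranked 6 of 18 at 5.5 h, 5 of 9 and 5 of 13 at 6 h 45 min, and 6 of 10 and 5 of 16 at 8 h, between 196 and 211 bp upstream of ARG82 (chromosome IV, window 799819 to 800418). YAP1802 encodes a clathrin adaptor of the AP180 family and FMP43 a subunit of the mitochondrial pyruvate carrier. Their summit ranked 4 of 18 at 5.5 h, 7 of 9 and 4 of 13 at 6 h 45 min, and 7 of 10 and 2 of 16 at 8 h. It lay between 361 and 370 bp upstream of YAP1802 and between 385 and 394 bp upstream of FMP43, near the middle of the 755 bp between their starts.

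CPR1 with RPA14 and DCP2 with MLS1 were in 4 of 6 sporulation tables, namely replicate 2 at every time and replicate 1 at 8 h. CPR1 encodes the cytosolic cyclophilin and RPA14 a subunit of RNA polymerase I. Their summit ranked 7 of 18 at 5.5 h, 8 of 13 at 6 h 45 min, and 9 of 10 and 8 of 16 at 8 h, and lay 154 to 169 bp upstream of RPA14. DCP2 encodes the catalytic subunit of the mRNA decapping enzyme and MLS1 malate synthase of the glyoxylate cycle, which lets cells build sugars from acetate. Their summit ranked 12 of 18, 10 of 13, and 8 of 10 and 9 of 16 in the same order, and lay 241 to 273 bp upstream of DCP2 and 521 to 553 bp upstream of MLS1. Fisher exact tests of listing gave p = 0.429 for each of these 4 genes (adjusted p = 0.672).

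A further 6 genes were in all 3 sporulation tables of replicate 2 and in 0 tables of replicate 1 or of vegetative cells, so the call rule left them out. They were RPB11, for a subunit of RNA polymerase II, with SIN3, for the scaffold of a histone deacetylase complex that also represses meiotic genes during growth, PHO91, for a vacuolar phosphate transporter, with YNR014W, and PPH22, for a catalytic subunit of protein phosphatase 2A, with YDL186W. The summit between RPB11 and SIN3 ranked 8 of 18 at 5.5 h, 7 of 13 at 6 h 45 min and 7 of 16 at 8 h. No gene was in all 3 replicate 1 tables and absent from replicate 2 and vegetative tables. Tables of sporulation medium with the same replicate number and different times shared a median of 0.65 of their joint genes (6 pairs, 0.368 to 0.767). Tables of the same time and different number shared 0.481 (3 pairs, 0.241 to 0.548), and tables that differed in both shared 0.365 (6 pairs, 0.241 to 0.654). Tables that share a number thus had the higher median, but number goes with length. Replicate 1 named 7, 16 and 19 genes at the 3 times, and replicate 2 named 29, 24 and 29. A short list can share only a small part of the joint genes with a long one. All 7 genes of replicate 1 at 5.5 h were in every other sporulation table. Its shares were still 0.241 to 0.292 with replicate 2, and 0.438 and 0.368 with replicate 1. Likeness by number apart from length was not tested. These shares are a description, since the pairs reuse the same 6 tables.

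In sporulation medium most listed summits fell in the windows of 2 genes, which are neighbours transcribed away from each other. The share of such summits was 5 of 18 (27.8%, exact 95% Clopper-Pearson interval 9.7% to 53.5%) and 4 of 13 (30.8%, 9.09% to 61.4%) in the vegetative tables. It was 3 of 4 (75%, 19.4% to 99.4%) and 11 of 18 (61.1%, 35.8% to 82.7%) at 5.5 h. It was 7 of 9 (77.8%, 40% to 97.2%) and 11 of 13 (84.6%, 54.5% to 98.1%) at 6 h 45 min, and 9 of 10 (90%, 55.5% to 99.8%) and 13 of 16 (81.2%, 54.4% to 96%) at 8 h. Intervals cover counting error only.

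All 6 sporulation libraries lay above both vegetative ones, also within each replicate number. The mean was 29.3 ± 2.11% in vegetative cells (SD, n = 2) and 78.3 ± 9.92% in sporulation medium (SD, n = 6), a difference of 49.0 percentage points in 6 of 6 libraries (exact two-sided permutation test over libraries, p = 0.0357, the smallest the design allows). Adjusted over the 3 values compared per library, it missed the threshold (exact permutation test, adjusted p = 0.0536). Without 5.5 h the difference was 54.1 points (exact permutation test, p = 0.0667, the smallest for 2 against 4). The sporulation tables list the same few regions again and again, so they are not independent draws of promoters. Counted as regions, 8 of the 9 called in sporulation medium had a summit in 2 windows, against 4 of the 11 called in vegetative cells. A pair of divergent genes whose summit lies outside one of the windows is not counted here.

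The gene order of the R64 reference gives a background for this. Of 5992 protein-coding genes with an upstream neighbour there, 51.7% have one that is transcribed the other way. The same holds for 8 of the 15 genes called in vegetative cells (53.3%) and for 16 of the 17 called in sporulation medium (94.1%), with HSH49 as the exception. UTR5, called in vegetative cells, has a divergent neighbour in R64 but no summit in 2 windows, and GLK1 has a summit in 2 windows but another upstream neighbour in R64, YCL042W. A summit in 2 windows brings both of its genes into the count, which raises these shares.

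The listed summits were also nearer to gene starts in sporulation medium. The median distance over the genes of a table was 365 and 320 bp in vegetative cells. It was 243 and 296 bp at 5.5 h, 261.5 and 299 bp at 6 h 45 min, and 273 and 296 bp at 8 h. The groups did not overlap, with means of 342.5 ± 31.8 bp (SD, n = 2) and 278 ± 22.9 bp (SD, n = 6), in 6 of 6 libraries (exact two-sided permutation test, p = 0.0357, the smallest the design allows; adjusted p = 0.0536). The difference was lost when low-scored summits were left out: with scores of at least 500 the means were 287 and 286 bp (exact permutation test, p = 1). The share of summits in the windows of 2 genes stayed apart with that filter, at 40% and 89.7% (exact permutation test, p = 0.0357, adjusted p = 0.107). Under the filter, replicate 1 at 5.5 h kept only the summit of TPM1 and NIS1 (score 1200), as its next score was 378. That library still counts as much in both means as the longer ones. The same cut was used in all tables, whose scores are not known to be on 1 scale.

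**Figure D3:**
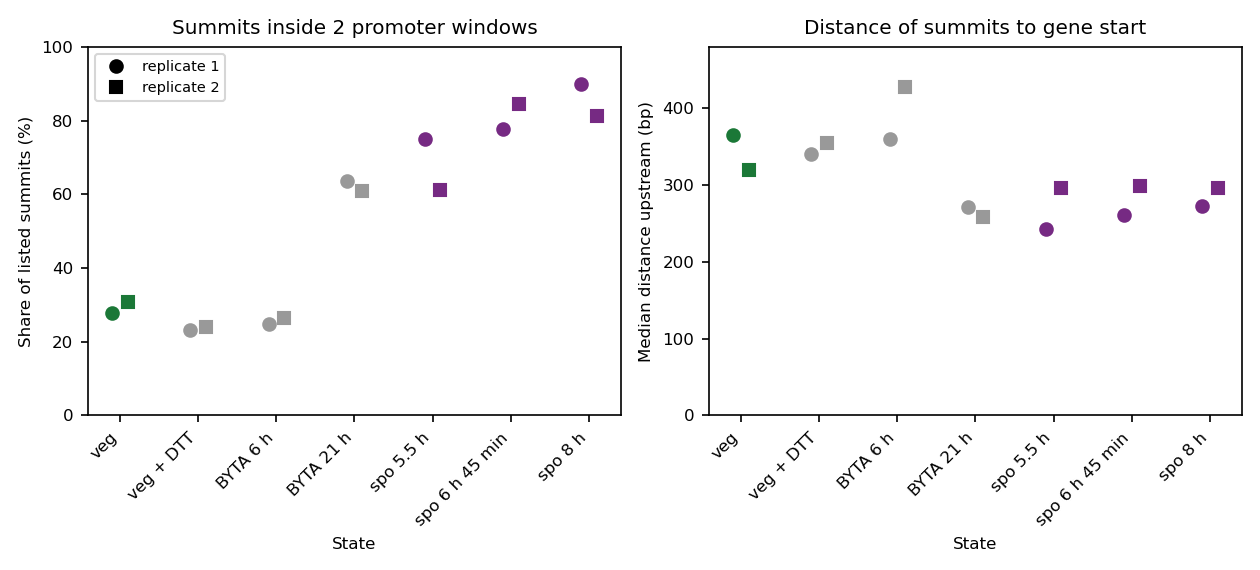
Share of listed summits that lie in 2 promoter windows (left, %) and median distance of summits to the gene start (right, bp) in each ChIP library of the 7 states (green, vegetative; purple, sporulation medium; grey, other states of the series; circles, replicate 1; squares, replicate 2). The 6 sporulation libraries lie between 61.1% and 90%, above the vegetative libraries at 27.8% and 30.8%.

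The length of the tables did not separate the groups. Vegetative tables named 23 and 17 genes, and sporulation tables named 7 and 29 at 5.5 h, 16 and 24 at 6 h 45 min, and 19 and 29 at 8 h. The means were 20 ± 4.24 (SD, n = 2) and 20.7 ± 8.5 (SD, n = 6; exact two-sided permutation test, p = 0.964; adjusted p = 0.964).

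Among 16 gene lists, the 2 of meiosis had no member in these tables. Over all protein-coding genes 0.415% were in at least 1 vegetative table and 0.631% in at least 1 sporulation table. For lists this short, 0 is near those shares. Early meiosis genes (IME1, IME2, SPO11 and others, 18 in all, without RIM15, which was in 1 table of sporulation medium) and middle meiosis and spore wall genes (NDT80, SMK1, SPS4 and others, 22 in all) had 0 listed in either group. A selection of glycolysis genes (17, without GLK1, which was entered under general stress although glucokinase catalyses the first step of glycolysis), a selection of ribosomal protein genes (22, without RPL2A, which was in 1 table of sporulation medium) and mating genes (9 genes) had 0 as well. The list of ribosome assembly and RNA polymerase I genes (23 genes) had YTM1 called in vegetative cells, and HMO1 and RPA14 in sporulation medium, with HAS1 in 2 replicate 2 tables. FSF1 had also been entered on that list, but it encodes a mitochondrial membrane protein and is not counted here as a ribosome assembly gene. One-carbon and glycine metabolism had DFR1 and GCV2 called in vegetative cells, 2 of 15, and GCV2 in sporulation medium.

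The list of actin cytoskeleton and bud site genes had 4 of 18 called in sporulation medium, TPM1, NIS1, BUD7 and YAP1802, and 0 called in vegetative cells, where TPM1 and NIS1 were in 1 table. BUD7 and YAP1802 act in vesicle traffic, as described above, and TPM1 and NIS1 share a summit but are counted separately. Cytosolic heat shock and chaperone genes had CPR1 called, 1 of 20, with MDJ1 in 1 table of sporulation medium. Acetate, glyoxylate and gluconeogenesis genes had MLS1, 1 of 16. General stress genes had GLK1 called in vegetative cells, 1 of 13. MRPS17 was the 1 of 20 mitochondrial translation genes called in each group. UPR signalling had 0 of 4 called, with HAC1 in 1 table. These are counts against backgrounds of 0.249% and 0.282% of all protein-coding genes, and lists this short give no comparison with the rest of the genome. The lists were also chosen with earlier results of these data known, so their counts are no support for a theme.

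Both sets of genes were also looked up in the other states of the series. All 11 genes called in sporulation medium and in no vegetative table were also called after 21 h in BYTA, where 0.448% of protein-coding genes were called. Of these 11, 2 were called at 6 h in BYTA (DCP2 and MLS1; 1.74% of protein-coding genes) and 4 in vegetative cells treated with DTT, which disturbs protein folding in the ER (ARG82, HMO1, DCP2 and MLS1; 4.68%). In at least 1 table, 10 of the 11 were listed at 6 h in BYTA, all except HSH49, and 8 of the 11 with DTT. Those tables are long, with 340 and 111 genes at 6 h in BYTA and 360 and 300 with DTT. The share of all protein-coding genes in at least 1 of them was not computed, so these counts are descriptions. The 6 genes of the replicate 2 tables were likewise called at 21 h in BYTA and listed in 0 tables of DTT or 6 h in BYTA.

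Of the 9 vegetative genes with no sporulation listing, 0 were called at 21 h in BYTA, where PSA1 was in 1 table. With DTT 5 of them were called (PSA1, DFR1, TAL1, FSF1 and YTM1), and at 6 h in BYTA PSA1 alone. In at least 1 table, 7 of the 9 appeared under DTT, and 3 of the 9 appeared at 6 h in BYTA. These are the same long tables, so the counts are again descriptions without a background share. PSA1 ranked 4 of 277 and 2 of 91 at 6 h in BYTA, 36 of 296 and 14 of 245 with DTT, and 15 of 22 in the 1 table at 21 h. UTR5 and YDR042C were in no table outside vegetative growth. The share of summits in 2 windows was 63.6% and 60.9% at 21 h in BYTA, and between 23.3% and 26.4% in the DTT and 6 h BYTA libraries. The median distance to the gene start was 271 and 258 bp at 21 h in BYTA, within the range of sporulation medium. It was between 340 and 428 bp in the DTT and 6 h BYTA libraries.

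**Figure D4:**
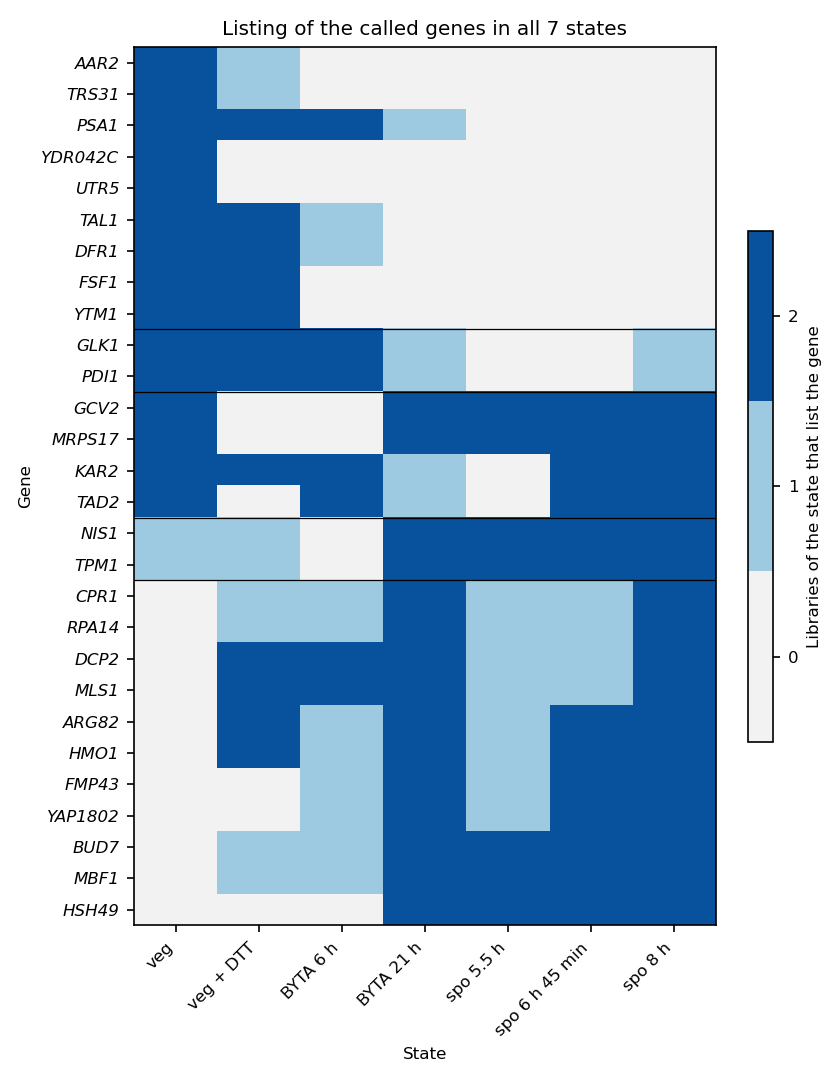
Number of libraries (0, 1 or 2) of each of the 7 states (columns) that list each of the 28 called genes (rows, grouped as in the plot of ranks). The 11 genes at the bottom are listed in both libraries at 21 h in BYTA and in neither vegetative library, and the 9 at the top in no library of sporulation medium.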

How the data were processed

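The deposited tables hold 1 row per pair of a peak summit and a promoter window, with the authors' score of the summit, per the file headers. The headers do not name the type of score. Ranks were taken inside 1 table only, while the cut at a score of 500 was the same for all tables. The submitters' processing notes list, without roles, the tools ChIPseeker (1.44.0), MACS2 (2.2.9.1), Bowtie2 (2.3.4.1) and SAMtools (1.7). The sources used here do not give the SK1 assembly, and coordinates are those deposited. By its labels the series holds input libraries for each state, but the sources do not give the control used to call peaks. Peak names carry a library name, which assigned each table to 1 library.

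Genes are named as in the tables. The RefSeq R64 gene table held all 55 systematic names and was used for names and gene order. Distances run from the summit to the gene edge of its window. Per gene and table the best summit was kept. Tests were Fisher exact and exact permutation tests over libraries (Python 3.11.15, SciPy 1.17.1), adjusted by Benjamini-Hochberg at 0.05. Their arithmetic was checked on simulated data with a known answer, which measured neither an error rate nor power. The gene lists and their members were chosen with earlier results of these data known. Every called gene is named, with list members, HAC1, and genes in at least 3 of the 8 tables. Alternatives were nearest gene only, a score of at least 500, either library, every time, each library left out and a replicate block, and, after seeing the data, 5.5 h left out and at least 4 of 6 sporulation libraries.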

Additional observations from a re-analysis of the deposited data

How the results depend on the processing

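The tables are short, so the counts depend on the call rule. With each summit given to the nearest gene only, 9 genes were called in sporulation medium, 1 in both groups (MRPS17) and 7 in sporulation medium alone, and the difference in genes per library became -3.83. The share of summits in 2 windows has no value under that setting. With scores of at least 500, 2 genes were called in both. With a gene called in either library, 25 were called in vegetative cells, 38 in sporulation medium and 8 in both, with 17 and 30 in 1 group alone. With both tables of every sporulation time required, 7 were called, 2 in both groups and 3 in sporulation medium alone. At least 4 of 6 sporulation libraries gave 17, 4 and 11, as reported. Leaving out each library in turn gave 15 to 23 genes called in vegetative cells, 17 to 31 in sporulation medium and 4 to 6 in both. Vegetative genes alone ran from 9 to 15 and sporulation genes alone from 11 to 25. Without vegetative replicate 2 the vegetative counts were 23 and 15. Without replicate 1 at 5.5 h the sporulation counts were 31 and 25, without replicate 1 at 8 h 29 and 23, and without replicate 1 at 6 h 45 min 18 genes were called in sporulation medium alone. The difference in genes per library then ran from -2.33 to 3.67, so it has no stable direction. The differences in median distance (-86.9 to -41.9 bp) and in the share of summits in 2 windows (46.7 to 52.5 percentage points) kept their direction.

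The deviations of same-numbered tables correlated at 0.216, 0.0797 and 0.102 between vegetative cells and the 3 sporulation times, so the numbers were not taken to pair the groups. Between the sporulation times they correlated at 0.599, 0.473 and 0.364. With the replicate block, exact permutation p was 0.0625 for both the share and the median distance, the smallest 16 regroupings allow, and 0.0625 for the shift at MRPS17. No gene passed the listing test after adjustment in any setting (0 of 55 genes with all libraries, Fisher exact test). The number of libraries largely fixed this outcome, so it does not show that listing was alike in the groups. With the replicate block, a vegetative library left out or 5.5 h left out, not even an unadjusted p could fall under 0.05.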

Other observations

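Genes in 1 or 2 of the 8 tables that belong to no call are values from single libraries. In sporulation medium, IFH1, for a coactivator of ribosomal protein genes, with YLR224W was in the replicate 2 tables at 5.5 h and 8 h, at position 557190 of chromosome XII in both, and was in no table of another state. HAS1, for an RNA helicase of ribosome assembly, was in the same pair of tables, 189 and 187 bp upstream. WHI4, for an RNA-binding protein of cell size control, was in the replicate 2 tables at 5.5 h and 6 h 45 min and in no table of another state. RPL2A, a ribosomal protein gene, was in replicate 1 at 6 h 45 min as the last of 9 entries. In vegetative cells, NAT2 and CTR2, the latter for a vacuolar copper transporter, were each in 1 table and in no other table of the series. Of the 55 genes, 16 were in exactly 1 of the 8 tables. These genes were chosen after their values were seen.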
